A study of Mus musculus with 6 samples.

Results

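Padi2, Espn and Gpd1 are 3 genes that were lower in every library from tumors of mice whose ADAM12+ cells were targeted by a toxin, among the 53801 genes of the deposited table and the 15133 that passed the filter on low counts. They were picked because each DTR value lay under each Ctrl value at a level of about 10 CPM (counts scaled to the same library total) or more, so the difference between the groups is the reason for their choice and is described here without a test. All 3 passed the filter.

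The libraries came from PDPN+PDGFRα+ cells sorted from MO5 tumors, which are subcutaneous B16-OVA melanomas. Ctrl mice were non-transgenic littermates (DTR-) and DTR mice carried the ADAM12-DTR transgene (DTR+), in which the Adam12 promoter of an artificial chromosome drives the receptor for diphtheria toxin (DT). All 6 libraries, 3 from each genotype, are labelled as treated with DT, and both genotypes were C57Bl/6 mice of 8 to 12 weeks. The study's methods give 100 ng of DT per day, and a legend for mice of this design gives day 10 as its start. DT kills the cells that express the receptor, so the comparison asks how the sorted PDPN+PDGFRα+ population differs in tumors where ADAM12+ cells were targeted. The labels do not say whether each library held 1 tumor or a pool, so the spread between libraries may in part be technical.

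The 3 genes belong to separate pathways. Padi2 encodes a peptidylarginine deiminase (PAD), a calcium-dependent enzyme that turns arginine in proteins into citrulline and so removes a positive charge; its known substrates include vimentin, actin, myelin basic protein and histones. Espn encodes espin, a protein that ties actin filaments into the parallel bundles of stereocilia and microvilli. Gpd1 encodes the cytosolic glycerol 3-phosphate dehydrogenase, which uses NADH to reduce dihydroxyacetone phosphate to glycerol 3-phosphate. That product is the backbone of triglycerides and phospholipids, and its reoxidation by the mitochondrial enzyme Gpd2 carries electrons from the cytosol to the respiratory chain.

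In GRCm38, Padi2 (ENSMUSG00000028927) lies on the plus strand at chr4:140906344-140952586 and its single coding transcript has 16 exons. Espn (ENSMUSG00000028943) lies on the minus strand at chr4:152120331-152152371, 11.25 Mb from Padi2 between start sites, and has 15 coding transcripts of 5 to 16 exons, which a count per gene adds together. Gpd1 (ENSMUSG00000023019) lies on the plus strand at chr15:99717515-99725005 and has 2 coding transcripts of 8 exons each. The promoters are shown because the 3 genes were lower together, and RefSeq (GRCm38.p6) gave sequence for 2 of them, 250 bases before the start site at chr4:140906110-140906359 (plus strand) for Padi2 and at chr4:152152390-152152639 (minus strand) for the first of 3 Espn start sites. GC boxes, GGGCGG on either strand, are in capitals.

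Padi2 promoter: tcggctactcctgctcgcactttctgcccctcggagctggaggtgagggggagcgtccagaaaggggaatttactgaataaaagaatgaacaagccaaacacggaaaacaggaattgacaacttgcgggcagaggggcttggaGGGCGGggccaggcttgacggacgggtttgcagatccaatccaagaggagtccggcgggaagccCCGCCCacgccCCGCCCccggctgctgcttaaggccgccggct

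Espn promoter: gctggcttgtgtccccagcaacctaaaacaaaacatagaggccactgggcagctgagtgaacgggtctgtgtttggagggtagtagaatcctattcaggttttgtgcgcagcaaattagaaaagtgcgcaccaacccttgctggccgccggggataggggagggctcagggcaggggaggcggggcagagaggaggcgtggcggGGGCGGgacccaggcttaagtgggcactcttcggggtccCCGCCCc

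The Padi2 window held 3 GC boxes and the Espn window 2, and both had a GC content of 61.6% against a median of 52.4% over all 32851 promoters. A GC box was present in 32.7% of all promoters. The core of the hypoxia response element has the forms ACGTG and GCGTG. Each window held 1 GCGTG, which was present in 28.2% of all promoters and was searched for after the sequences were seen. Neither window held ACGTG (16.6% of promoters), the AP-1 motif TGANTCA (6.75%) or the TATA box TATAAA (12.4%), searched on both strands. CCAAT, found in 33.8% of promoters, occurred once (1 match) in the Padi2 window and was not found in that of Espn. The windows before the other 2 Espn start sites, both inside the gene, differed from the first. The second held 0 GC boxes, 1 CCAAT and 0 GCGTG, and the third held 1 GC box, 0 CCAAT and 1 GCGTG. The last bases of the Padi2 window lie inside the gene as the Ensembl annotation draws it, since that annotation starts the gene further upstream than RefSeq does.

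The libraries held 22339635 to 34271929 counts, at which 3 counts correspond to 0.0872 to 0.132 CPM after scaling by the trimmed mean of M values (TMM). Adam12 was measured at 175 to 216 CPM in Ctrl and 112 to 165 CPM in DTR, with a log2 fold change of -0.42 (SE 0.154, edgeR quasi-likelihood adjusted p = 0.602), so Adam12 RNA was still present in every DTR library. The labelled cell type was checked against 10 markers of melanoma and 10 of fibroblasts. The summed melanoma markers (Dct the most abundant) ran from 18447 to 21102 CPM in Ctrl and from 17333 to 20376 CPM in DTR, above the summed fibroblast markers in all 6 libraries, although the gate selects stromal cells. The fibroblast markers (Col3a1 the most abundant) stood at 10869 to 14155 CPM in Ctrl replicate 1 and DTR replicates 1 and 3, and at 5211 to 5605 CPM in the other libraries. Of the melanoma markers, 7 of 10 had a log2 fold change below 0, and of the fibroblast markers 9 of 10 were above 0, none with an adjusted p under 0.05 in edgeR and none called by DESeq2. Among all tested genes, 50.4% lay below 0. Sox10, a transcription factor of the melanocyte lineage, had a log2 fold change of -0.28. It was the 1 of these 20 markers with an unadjusted p under 0.05 in edgeR, beside 7.92% of all tested genes. It was also the 1 of 20 lower in every DTR library, beside 8.18% of all tested genes. Padi2, Espn and Gpd1 were thus measured in libraries with more melanoma than fibroblast marker signal, which also differed in stromal signal within each group.

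Padi2 was measured at 93.4, 128 and 117 CPM in Ctrl and at 67.7, 71.1 and 63.0 CPM in DTR, from 2290, 3063 and 3328 counts and from 2330, 2209 and 1429 counts. Ctrl replicate 1 was the lowest of its group and still 1.31 times the highest DTR library. The group means were 113 ± 17.7 and 67.2 ± 4.07 CPM (SD, n = 3), a log2 fold change of -0.75 (SE 0.126), which is 40.4% lower in DTR.

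Espn was the least abundant of the 3 genes and had the widest difference. It was measured at 18.9, 14.4 and 11.1 CPM in Ctrl and at 6.83, 6.69 and 5.20 CPM in DTR, from 463, 345 and 315 counts and from 235, 208 and 118 counts. The lowest Ctrl library, replicate 3, was 1.62 times the highest DTR library. Means were 14.8 ± 3.93 and 6.24 ± 0.904 CPM (SD, n = 3), a log2 fold change of -1.24 (SE 0.232), or 57.7% lower in DTR.

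Gpd1 varied least. It was measured at 93.0, 103 and 101 CPM in Ctrl and at 71.2, 68.8 and 64.2 CPM in DTR, from 2280, 2474 and 2890 counts and from 2452, 2138 and 1458 counts. As for Padi2, Ctrl replicate 1 was the lowest of its group, at 1.31 times the highest DTR library. Means were 99.3 ± 5.56 and 68.1 ± 3.55 CPM (SD, n = 3), a log2 fold change of -0.54 (SE 0.0880), or 31.4% lower in DTR.

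**Figure D1:**
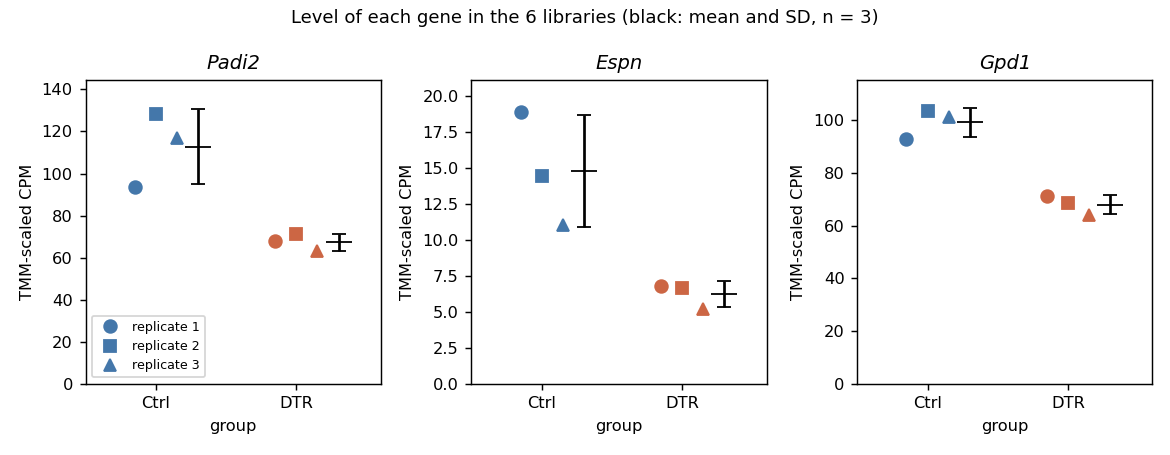
Level of Padi2, Espn and Gpd1 in each library, as TMM-scaled CPM on axes that start at 0, with marker shapes for the replicate number and black bars for the mean and SD of 3 libraries per group. The DTR points of Padi2 (63.0 to 71.1 CPM), Espn (5.20 to 6.83 CPM) and Gpd1 (64.2 to 71.2 CPM) all sit under the lowest Ctrl point of the same gene.

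DTR replicate 3 was the lowest of the 6 libraries for each of the 3 genes, whereas the Ctrl libraries were ordered differently: replicate 1 was the lowest for Padi2 and Gpd1 and the highest for Espn. The spread within Ctrl, as a coefficient of variation, was 15.7% for Padi2, 26.5% for Espn and 5.60% for Gpd1. Within DTR it was 6.06%, 14.5% and 5.22%. In cells pooled in this way, fewer cells of a type that expresses a gene and less of its RNA per cell cannot be told apart.

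Per kilobase of exon, the level of Gpd1 was the highest, at 33.5 ± 1.88 CPM per kb in Ctrl and 23.0 ± 1.20 in DTR (SD, n = 3). Padi2 followed at 22.5 ± 3.53 and 13.4 ± 0.812 CPM per kb, and Espn stood at 1.79 ± 0.475 and 0.754 ± 0.109 CPM per kb. Neighbours in this order differed by more than their spread in both groups, and the order was the same in all 6 libraries. The level of Padi2 over that of Gpd1, per kilobase, came to 0.593, 0.731 and 0.680 in Ctrl and to 0.561, 0.610 and 0.579 in DTR, so that the groups overlapped in this ratio. Gpd1 over Espn ran from 13.8 to 25.6 in Ctrl and from 28.7 to 34.5 in DTR without overlap. Padi2 over Espn was 8.16, 14.7 and 17.4 in Ctrl and 16.4, 17.5 and 20.0 in DTR, where the highest Ctrl library, replicate 3, lay above the lowest DTR library.

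Being lower in every DTR library was a property of 1238 of the 15133 tested genes (8.18%), and 956 (6.32%) were higher in every DTR library. With an offset for genomic span the lower count was 1963 of the same 15133 genes. Among the 8792 tested genes of at least 10 CPM, 960 (10.9%) were lower in every DTR library. Ordered by the ratio of the lowest Ctrl to the highest DTR value, Espn was number 2, Padi2 number 4 and Gpd1 number 5 of these 960. This ratio uses the values by which Espn, Padi2 and Gpd1 were picked, so their ranks describe the choice and add no support. Just inside the limit stood Fbxo31 (ratio 1.00008, mean 14.1 CPM) and just outside it Sall2 (ratio 0.999996, mean 16.1 CPM). Over all tested genes, 95 had a lower log2 fold change than Espn, 380 than Padi2 and 688 than Gpd1, which rests on the same contrast as the choice.

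**Figure D2:**
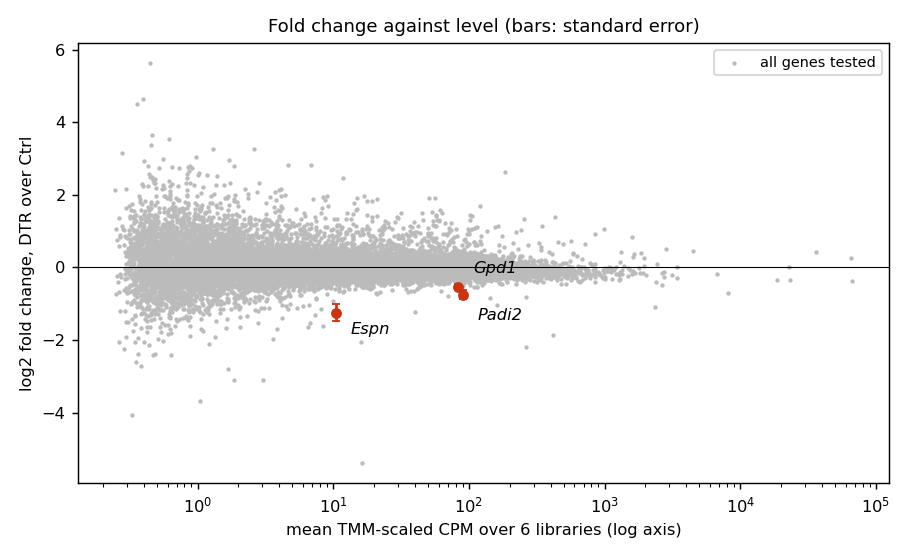
Log2 fold change of DTR over Ctrl (y axis) against the mean TMM-scaled CPM of the 6 libraries (x axis, log scale) for the 15133 tested genes in grey, with Padi2, Espn and Gpd1 in red and their standard errors as bars. Espn sits at -1.24 at the lower level, and Padi2 and Gpd1 lie close together in level at -0.75 and -0.54.

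After adjustment, edgeR's quasi-likelihood test called 0 of 15133 genes at 0.05 (0%), and no adjusted p fell below 0.602. At an unadjusted p under 0.05 there were 1199 genes (7.92%), 622 lower and 577 higher in DTR. DESeq2's Wald test called 31 of 20519 genes (0.151%), 14 of them lower. Padi2, Espn and Gpd1 were among the 31 DESeq2 calls and among the 1199, and not among the edgeR calls; since they were chosen on this contrast, these counts add no support.

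The other members of the PAD family were near the limit of detection. Padi4, the enzyme known from neutrophil extracellular traps, was the only other one tested, at 0.344 ± 0.198 CPM in Ctrl and 0.665 ± 0.372 CPM in DTR (SD, n = 3), a log2 fold change of 0.95 (SE 0.694, adjusted p = 0.730). Padi1 averaged 0.261 and 0.197 CPM, Padi6 0.0256 and 0.0977 CPM, and Padi3 had no count in Ctrl and a mean of 0.0387 CPM in DTR. Where Padi2 had at least 1429 counts in each library, these 4 genes had at most 34.

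Among proteins that PADs are known to citrullinate, 7 of 11 were tested, 5 below and 2 above a log2 fold change of 0, with a median of -0.15 against -0.0029 over all tested genes. None passed an adjusted p under 0.05 in edgeR (0 of 7), and DESeq2 called 0. Eno1, a glycolytic enolase, had the lowest log2 fold change, -0.45 (SE 0.124, adjusted p = 0.602), from 547 ± 33.3 to 401 ± 61.7 CPM (SD, n = 3), and was the 1 of 7 genes with an unadjusted p under 0.05, beside 7.92% of all tested genes. Gfap, an intermediate filament protein, followed at -0.34 (SE 0.203). Fn1, the matrix protein fibronectin, had the highest value, 0.82 (SE 0.460), and the chemokine Cxcl12 stood at 0.32 (SE 0.365). Vim, Gfap and Eno1 (3 of the 7) were lower in every DTR library, beside 8.18% of all tested genes.

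Espnl, the espin-like paralog of Espn, was measured at 12.5 ± 2.12 CPM in Ctrl and 13.3 ± 0.345 CPM in DTR (SD, n = 3). Its log2 fold change was 0.09 (SE 0.164, adjusted p = 0.900). In a list of espins and actin-bundling proteins that includes Espnl but not Espn, 15 of 19 genes were tested, with 7 below and 8 above 0 and a median log2 fold change of 0.06. None passed an adjusted p under 0.05, DESeq2 called 0, and 1 of 15, Vill, had an unadjusted p under 0.05, beside 7.92% of all tested genes. Lcp1, a plastin of blood cells, had the lowest log2 fold change at -0.40 (SE 0.186), and Vill, a villin-like protein, stood at -0.31 (SE 0.107). The highest were Myo3b, a myosin known to carry espins to the tips of protrusions, at 0.88 (SE 0.518), and the muscle actinin Actn2 at 0.60 (SE 0.978), both with group means of at most 2.11 CPM. Lower in every DTR library were 4 of the 15 (Lcp1, Vill, Actn4 and Eps8), and 1, Pls3, was higher in every one, beside 8.18% and 6.32% of all tested genes.

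Gpd1l, which catalyses the same reaction as Gpd1, was measured at 31.6 ± 2.05 CPM in Ctrl and 33.8 ± 6.65 CPM in DTR (SD, n = 3), a log2 fold change of 0.10 (SE 0.151, adjusted p = 0.880). Gpd2, the mitochondrial partner in the glycerol phosphate shuttle, was measured at 73.8 ± 9.21 and 72.8 ± 12.7 CPM, a log2 fold change of -0.02 (SE 0.148, adjusted p = 0.979). The groups overlapped for both genes. Of 25 genes of glycerol 3-phosphate use and NADH shuttles other than Gpd1, 23 were tested, 14 below and 9 above 0, with a median log2 fold change of -0.03. None passed an adjusted p under 0.05 and DESeq2 called 0.

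In that list Pgp, a phosphatase of glycerol 3-phosphate, had the lowest log2 fold change, -0.47 (SE 0.147, adjusted p = 0.602), from 26.3 ± 3.43 to 19.1 ± 2.49 CPM. Aldoa, the aldolase that supplies dihydroxyacetone phosphate, stood at -0.31 (SE 0.102). The acyltransferases of the last step of triglyceride synthesis had the highest values, Dgat1 at 0.36 (SE 0.107) and Dgat2 at 0.33 (SE 0.553). Pgp, Aldoa and Dgat1 were the 3 of 23 genes with an unadjusted p under 0.05, beside 7.92% of all tested genes. Pgp, Aldoa, Agpat1 and Agpat3 (4 of 23) were lower in every DTR library, and Dgat1 and Slc25a12 (2 of 23) higher in every one, beside 8.18% and 6.32% of all tested genes.

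**Figure D3:**
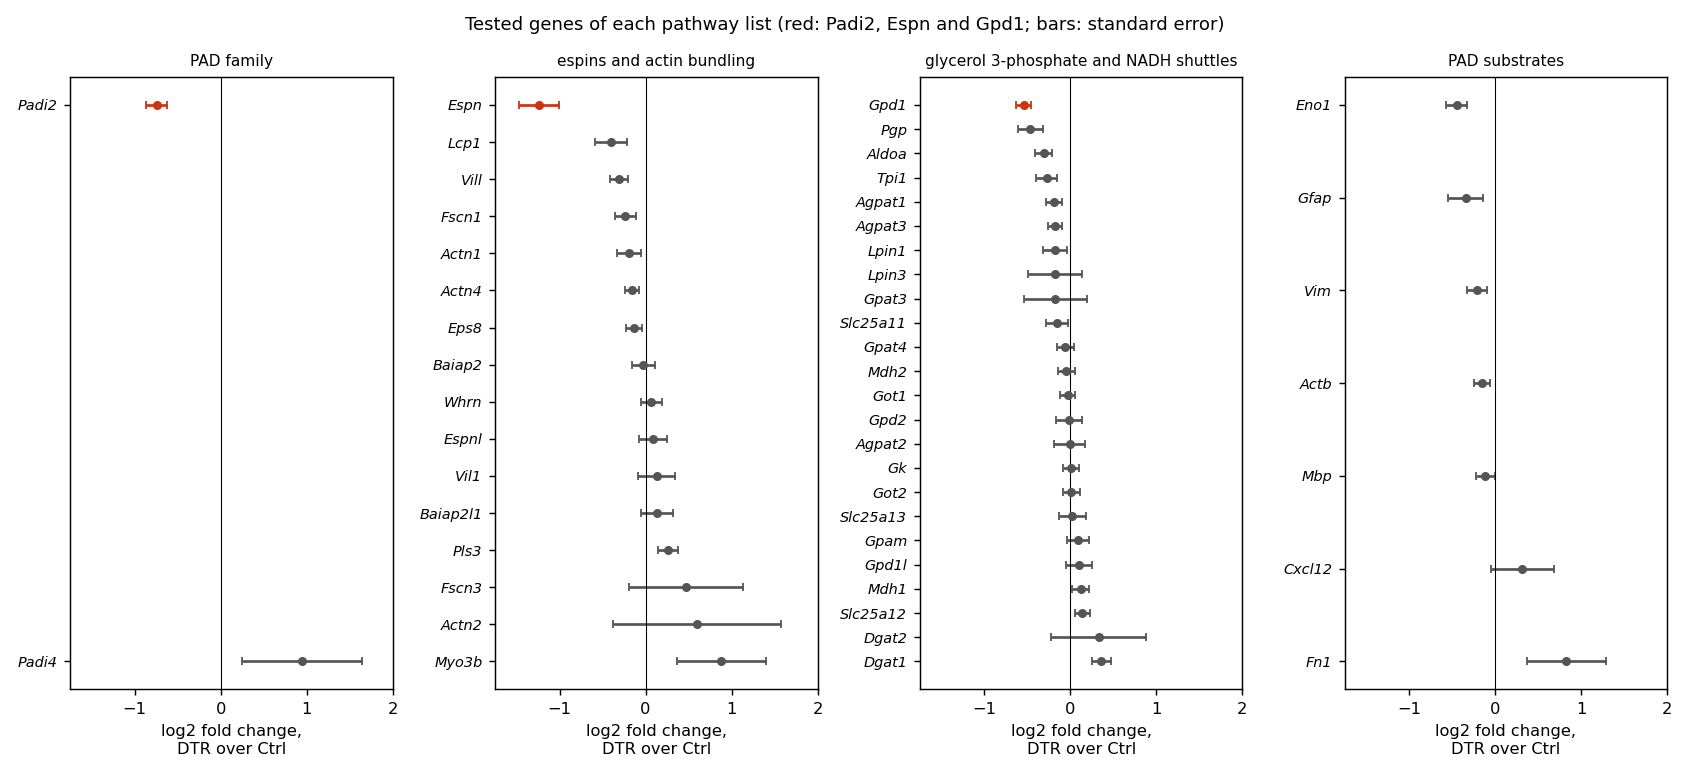
Log2 fold change of DTR over Ctrl (x axis) with its standard error (bars) for each tested gene of 4 lists, ordered from lowest to highest in each panel, with Padi2, Espn and Gpd1 in red. The red points head the first 3 panels at -0.75, -1.24 and -0.54, and the next lowest genes are Lcp1 at -0.40 and Pgp at -0.47.

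The genomic neighbours of the 3 genes were read from the same fit, since position had no part in their choice. Within 250 kb of the start of Padi2, 12 of 23 annotated genes were tested, 8 below and 4 above 0, with a median log2 fold change of -0.11. The values ran from -0.30 (Atp13a2) to 1.11 (Spata21). By distance between start sites, the nearest tested gene before Padi2 was Padi4, and the nearest after it Gm13031, an antisense gene, at -0.15 (SE 0.388). Around Espn, 14 of 23 were tested, 10 below and 4 above 0, with a median of -0.07 and values from -0.26 to 0.81 (Rnf207). Its nearest tested neighbours were Acot7, a thioesterase, at -0.26 (SE 0.126) and the receptor gene Tnfrsf25 at 0.12 (SE 0.582). Around Gpd1, 10 of 30 were tested, 6 below and 4 above 0, with a median of -0.14 and values from -0.23 (Bcdin3d) to 0.74 (SE 0.480) for Gm17349, whose start site was the nearest before that of Gpd1 among tested genes. The nearest after it was the antisense gene Gm16537.

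None of these neighbours passed an adjusted p under 0.05 in edgeR, and DESeq2 called 0. An unadjusted p under 0.05 was given for Atp13a2 and Necap2 near Padi2, Rpl22 near Espn and Smarcd1 near Gpd1, and these 4 are named because of that p, which 7.92% of all tested genes passed. Lower in every DTR library were 3 of the 12 neighbours of Padi2, 1 of the 14 of Espn and 1 of the 10 of Gpd1, beside 8.18% of all tested genes. Higher in every DTR library were 2 of the 10 neighbours of Gpd1, Gm17349 and Gm17057, and 0 of those of Padi2 and Espn, beside 6.32% of all tested genes.

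**Figure D4:**
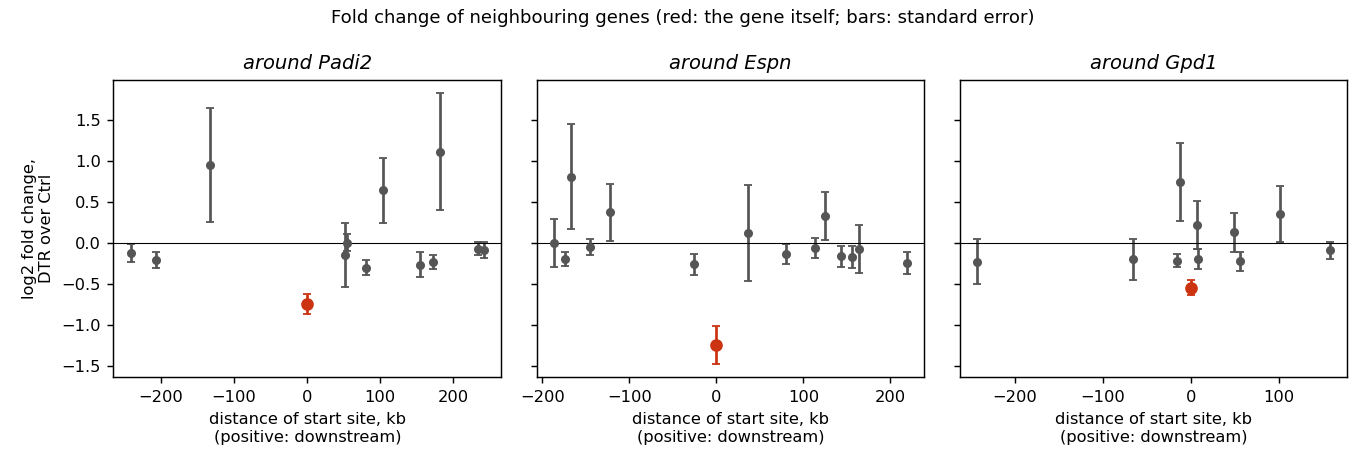
Log2 fold change of DTR over Ctrl with its standard error (y axis) against the distance of each tested gene's start site from that of Padi2, Espn or Gpd1 (x axis, kb, positive downstream of the named gene), which is in red. The red points lie at -0.75, -1.24 and -0.54, and the lowest neighbour, Atp13a2, lies at -0.30.

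An antisense gene overlaps Padi2 and another overlaps Gpd1. Gm13031 shares 149 exonic bases with Padi2 on the other strand and had 47, 56 and 53 counts in Ctrl and 79, 35 and 48 in DTR. Gm16537 shares 384 exonic bases with Gpd1 and had 53, 54 and 66 counts in Ctrl and 77, 84 and 66 in DTR, with a log2 fold change of 0.22 (SE 0.294). Both were far under the counts of the gene they overlap, and the reads were counted by strand. Of all 50-base stretches of the transcripts, 0.947% for Padi2 and 0% for Espn and Gpd1 also occur in another gene, and how reads with several alignments were counted is not given in the sources used here.

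The genes whose log2 level was most like that of each of the 3 were ranked by Pearson's r over the 6 libraries among 12978 tested genes of at least 1 CPM. For Padi2 they were the heme transporter Slc48a1 (r = 0.997), the DNA repair factor Xpc (0.994) and the leukotriene hydrolase Lta4h (0.994). For Espn they were Fip1l1, a polyadenylation factor (0.991), the actin-capping twinfilin Twf1 (0.989) and the translation factor Eif4b (0.988). For Gpd1 they were the autophagy gene Becn1 (0.990), again Lta4h (0.990) and Sipa1l2 (0.989). Lta4h was measured at 303, 326 and 316 CPM in Ctrl and at 267, 272 and 261 CPM in DTR. All 8 genes had a smaller fold change than the gene they resemble, from -0.32 to -0.16. The libraries fall into 2 groups that the 3 genes were chosen to separate, so r mostly reads that separation.

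Markers of other cells were summed in each library. The 14 adipocyte markers, of a cell type with abundant Gpd1, ran from 33.7 to 52.3 CPM in Ctrl and from 30.6 to 64.5 CPM in DTR, with Lpl the most abundant, Pck1 at 0 and Retn at 3 counts or fewer in every library. Lpl carried most of that sum, with a log2 fold change of 0.36 (SE 0.304), while 4 of the 6 tested adipocyte markers were below 0, with a median of -0.44. The lowest was the fatty acid binding protein Fabp4 at -1.14 (SE 1.05). The lipase gene Lipe, at -0.76 (SE 0.385), was the 1 of 6 lower in every DTR library, beside 8.18% of all tested genes. None of the 6 passed an adjusted p under 0.05 in edgeR, 0 had an unadjusted p under 0.05 and DESeq2 called 0. Adipoq, the defining adipokine, had 10, 4 and 4 counts in Ctrl and 4, 0 and 0 in DTR. The part of adipocyte RNA in the level of Gpd1 was not tested. The 10 skeletal muscle markers ran from 4.73 to 8.15 and from 5.73 to 7.29 CPM (Ckm the most abundant, Myh4 at 0). The 8 macrophage markers ran from 111 to 183 and from 128 to 138 CPM (Lyz2), with 5 below and 3 above a log2 fold change of 0. Mrc1, at -0.57, was the 1 of 8 with an unadjusted p under 0.05 in edgeR, beside 7.92% of all tested genes. It was also the 1 of 8 lower in every DTR library, beside 8.18% of all tested genes. The 10 neutrophil markers ran from 1.69 to 7.71 and from 1.67 to 2.86 CPM (Csf3r, with Ly6g and Camp at 0). The groups overlapped for each of these lists.

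The 8 keratinocyte and epithelial markers ran from 6.04 to 9.02 CPM in Ctrl and from 5.77 to 9.36 CPM in DTR (Cdh1, with Krt1 at 0). The 7 Schwann cell markers ran from 47.2 to 61.2 and from 49.2 to 55.4 CPM (Mbp). The 6 endothelial markers ran from 11.6 to 18.8 and from 13.3 to 78.8 CPM, with Tek the most abundant. Of the 4 tested, 1 had a log2 fold change below 0 (Cdh5, -1.53) and 3 above. Tek, at 1.84, was the 1 of 4 with an unadjusted p under 0.05 in edgeR, beside 7.92% of all tested genes. It was measured at 11.2, 4.35 and 7.69 CPM in Ctrl and at 14.7, 5.98 and 62.8 CPM in DTR. The groups overlapped for these lists too. Of the lists summed, the one of 12 hypoxia response genes alone did not overlap, at 1348 to 1756 CPM in Ctrl and 1037 to 1276 CPM in DTR (Ldha the most abundant), and 11 of its 12 genes had a log2 fold change below 0, beside 50.4% of all tested genes. None of the 12 passed an adjusted p under 0.05 in edgeR, and 4 (Car9, Pgk1, Ldha and Bnip3) had an unadjusted p under 0.05, beside 7.92% of all tested genes. DESeq2 called 1, Car9, a carbonic anhydrase with an edgeR log2 fold change of -1.23. Car9, Pgk1 and Ldha (3 of 12) were lower in every DTR library, beside 8.18% of all tested genes.

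**Figure D5:**
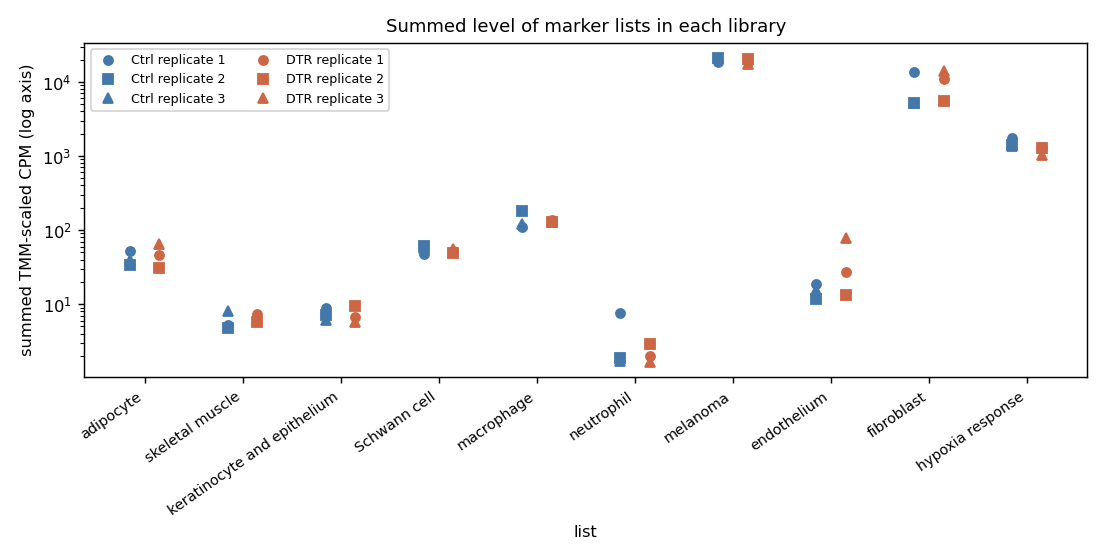
Summed TMM-scaled CPM (y axis, log scale) of 9 marker lists and the hypoxia response list in each library, with colours for the group and shapes for the replicate number. The hypoxia response sums of DTR (1037 to 1276 CPM) lie under those of Ctrl (1348 to 1756 CPM), while the groups overlap for the 9 marker lists.

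Relative to the summed melanoma list of the same library, the 3 genes remained lower in every DTR library. Padi2 stood at 5.06, 6.07 and 5.63 CPM per 1000 CPM of melanoma markers in Ctrl and at 3.69, 3.49 and 3.63 in DTR, a log2 ratio of -0.63. Espn and Gpd1 gave log2 ratios of -1.16 and -0.44 on this scale, also without overlap. Relative to the fibroblast list, the log2 ratios were -1.20 for Padi2, -1.51 for Espn and -0.98 for Gpd1, and the groups overlapped for Padi2 and Gpd1 but not for Espn.

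Relative to the summed hypoxia response list, Espn stood at 10.8, 10.2 and 8.21 CPM per 1000 CPM in Ctrl and at 5.39, 5.24 and 5.01 in DTR, a log2 ratio of -0.90 without overlap. Padi2 stood at 53.2, 90.2 and 86.7 in Ctrl and at 53.4, 55.7 and 60.7 in DTR, a log2 ratio of -0.44, and Gpd1 at 53.0, 72.8 and 75.3 in Ctrl and at 56.2, 53.9 and 61.9 in DTR, a log2 ratio of -0.22. For Padi2 and Gpd1 the groups overlapped on this scale through Ctrl replicate 1, which had the highest hypoxia response sum. The part of the hypoxia response, or of the share of melanoma and stromal RNA, in the lower levels was not tested.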

How the data were processed

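The authors sorted CD45-CD31-PDPN+PDGFRα+ cells and prepared stranded total RNA libraries (SMARTer Pico). Per the labels and the submitters' processing notes, reads were trimmed with cutadapt 3.4, aligned to GRCm38 with STAR 2.7.3a and counted per gene by strand with featureCounts 2.0.1. The deposited values used are raw counts, without normalization. The authors' normalized values, fold changes and p-values were not used.

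Genes without a name in the table (27987) were named from GENCODE M21 where possible (27927), which also gave positions and exonic lengths. Genes were kept by edgeR's filterByExpr (minimum count 10, minimum total 15), which left 15133 of the 26774 with a count. Counts were scaled by TMM. DTR was compared with Ctrl by the two-sided quasi-likelihood test of edgeR 4.0.16, without covariates and with Benjamini-Hochberg adjustment at 0.05, and standard errors come from the same fit. Levels are CPM, and likeness used log2 CPM with a prior count of 2. The software was Python 3.11.15, with matplotlib 3.10.9 for plots, and R 4.3.3, with DESeq2 1.42.0 as the other test. The fit was tested on simulated counts.

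The 3 genes, the lists and the alternatives were chosen with earlier results of these data known. Named genes are the 3, the PAD family, Espnl, Gpd1l and Gpd2, the 2 lowest and 2 highest of each other pathway list, the nearest tested neighbours, the 3 most similar genes of each and the most abundant or undetected markers. Genes named for an unadjusted p or for being lower or higher in every DTR library are outside this rule. So are the neighbours at the ends of each range, Adam12, Fabp4, Adipoq, Cdh5 and the genes at the limit of the choice. All of these were named after their values were seen. Alternatives were other scalings, filters and tests, the replicate number as a block, an offset for genomic span and each library left out. Values relative to summed marker lists were added after seeing the data.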

Additional observations from a re-analysis of the deposited data

How the results depend on the processing

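The log2 fold changes stayed between -0.87 and -0.65 for Padi2, -1.41 and -1.03 for Espn and -0.59 and -0.50 for Gpd1 over 13 other settings, chosen with earlier results of these data known. On the scales added after seeing the data the changes moved by more than the spread between libraries to -1.20 (fibroblast list) and -0.44 (hypoxia response list) for Padi2, to -0.90 (hypoxia response list) for Espn, and to -0.44 (melanoma list), -0.98 (fibroblast list) and -0.22 (hypoxia response list) for Gpd1. DESeq2 called 31 genes where edgeR called 0. Leaving out 1 library in turn gave 0 to 2 calls in edgeR, and the 2 calls, 4930509G22Rik and Gm8518, came without Ctrl replicate 1. The number of genes lower in every DTR library was 1238, rose to 1963 with the offset for genomic span, and was 1870 to 2382 with 1 library left out, where fewer libraries have to be separated. The offset also moved the median of the actin-bundling list from 0.06 to -0.044 and that of the glycerol 3-phosphate list from -0.03 to -0.13. The median of all tested genes moved in the same direction, from -0.0029 to -0.07. That of the actin-bundling list was -0.02 with at least 10 counts in every library. The median of the PAD substrates moved from -0.15 to -0.23 with the offset and to -0.24 without DTR replicate 3. That of the glycerol 3-phosphate list was 0.0079 without Ctrl replicate 3 and 0.03 without DTR replicate 3. The cause of these shifts was not tested.

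With the replicate number as a block, edgeR called 0 genes, and the log2 fold changes were -0.74 for Padi2, -1.22 for Espn and -0.54 for Gpd1. Deviations from the group means correlated at 0.114, 0.132 and -0.042 between libraries of the same number. Between libraries of different numbers the correlations ran from -0.215 to 0.102. Deviations of 3 libraries from their own mean depend on each other, so these values do not decide whether the numbers pair the samples. The labels do not say so either, and the comparison was left unpaired. With 3 libraries a group, Espn at 118 to 463 counts had the largest standard error of the 3 genes.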
